A study of Mus musculus with 7 samples.

Results

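The miRNAs described here are the mature arms of the paired miR-193 and miR-365 genes: mmu-miR-193a-3p, mmu-miR-193a-5p, mmu-miR-193b-3p, mmu-miR-193b-5p, mmu-miR-365-3p, mmu-miR-365-1-5p and mmu-miR-365-2-5p, written below without the species prefix. They were taken by name from the deposited count tables and are 7 of the 1966 mature miRNAs listed there. Small RNAs were sequenced from mouse hepatocytes, enriched from collagenase-perfused liver by slow centrifugation, to ask how ALAS, which catalyses the entry step of heme synthesis, bears on small RNA regulation. ALAS12-KO hepatocytes, described in the series as mutant for ALAS1/2, gave 4 libraries, and WT hepatocytes gave 3. Both genotypes carry the treatment label TMX, whose meaning is not stated. Nothing in the labels gives an age, the driver of the deletion or whether replicates are separate animals, so every p-value here reflects spread among these 7 libraries, which may be technical.

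A miRNA gene is transcribed as a long RNA that is cut to a hairpin and then to a short duplex, and 1 or both strands (the 5p and the 3p arm) are kept in an Argonaute protein. Bases 2 to 8 of the kept strand, the seed, do most of the pairing with target mRNAs. In mice, as in humans, a miR-193 gene sits beside a miR-365 gene on 2 chromosomes. In cultured mouse brown fat precursors miR-193b and miR-365 were reported to promote fat cell differentiation, whereas mice lacking that pair of genes were later reported to form brown fat normally. miR-193b-3p is known to repress cyclin D1 in human melanoma cells, and miR-193a-3p to repress KIT in human leukemia cells.

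The mature sequences are shown because they decide which locus a read can name. They are those of RefSeq on GRCm38.p6 (all 7 names were matched), written 5′ to 3′ with the seed in capitals.
miR-193a-3p: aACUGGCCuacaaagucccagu
miR-193b-3p: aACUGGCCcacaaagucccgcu
miR-193a-5p: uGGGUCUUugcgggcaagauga
miR-193b-5p: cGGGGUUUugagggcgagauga
miR-365-3p: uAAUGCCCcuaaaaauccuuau
miR-365-2-5p: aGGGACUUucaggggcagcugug
miR-365-1-5p: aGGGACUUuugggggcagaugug
Both miR-193-3p arms share 1 seed, and 19 of their 22 bases are the same. Counted from the 5′ end, with miR-193a-3p first, they differ by U9C, A20G and G21C. The miR-193-5p arms differ at 5 of 22 bases, and U5G and C6U lie in the seed, so their seeds differ. The miR-365-5p arms share their seed and differ at 3 of 23 bases (C10U, A11G and C19A, with miR-365-2-5p first). miR-365-3p has the same 22 bases at both loci, so its reads cannot be divided between them. Among the 1679 mature names with a RefSeq sequence, 0 others held any of these 5 seeds.

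On chromosome 11 of GRCm38, Mir193a lies at 79711969 to 79712034 and Mir365-2 at 79726400 to 79726511, both on the plus strand and 14.4 kb apart. Neither overlaps another gene in GENCODE M21, and the nearest protein-coding genes are Rab11fip4 before the pair and Utp6 after it. On chromosome 16, Mir193b lies at 13449523 to 13449601 and Mir365-1 at 13453840 to 13453926, also on the plus strand and 4.24 kb apart. Both lie within an intron of Gm15738, an antisense noncoding gene on the minus strand, between Mrtfb and Parn.

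The miR-365 hairpins show which arm can tell the loci apart, with both mature arms in capitals.
Mir365-2: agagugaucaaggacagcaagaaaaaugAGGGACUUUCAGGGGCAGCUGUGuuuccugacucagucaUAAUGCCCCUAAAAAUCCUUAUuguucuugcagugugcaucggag
Mir365-1: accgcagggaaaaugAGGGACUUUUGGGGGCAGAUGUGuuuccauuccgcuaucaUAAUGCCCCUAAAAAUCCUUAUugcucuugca
The second capital stretch is the same in each hairpin, and the first is not.

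The 7 libraries held 7719180 to 21962191 miRNA reads, so 1 CPM, the unit of level used here (reads scaled to the summed miRNA reads of the library), stood for 7.72 to 22.0 reads. miR-122-5p, the defining hepatocyte miRNA, took 53.5% to 61.5% of reads in ALAS12-KO and 57.1% to 59.4% in WT. ALAS12-KO replicate 1 stood apart in markers of other liver cells. The endothelial miR-126a arms took 1.10% of its reads. The share was 2.55% to 3.65% in ALAS12-KO replicates 2 to 4 and 3.56% to 5.25% in WT. Leukocyte and mesenchymal markers were also lowest in ALAS12-KO replicate 1 among the 7 libraries. The genotype could not be checked, because mRNA is not counted in these tables.

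The arms that name a locus came almost wholly from chromosome 11. Over all 7 libraries, miR-193a-5p had 2930 reads, miR-193a-3p 2489 reads and miR-365-2-5p 69 reads. From chromosome 16, miR-193b-3p had 21 reads, miR-193b-5p 2 reads and miR-365-1-5p 0 reads. The chromosome 16 arms made up 12 of 3110 such reads in ALAS12-KO, 0.386% (95% Wilson interval 0.221% to 0.673%), and 11 of 2401 in WT, 0.458% (0.256% to 0.819%). The intervals overlap. These intervals, like all intervals on read shares here, cover counting error only, since the labels name no molecular identifiers.

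**Figure D1:**
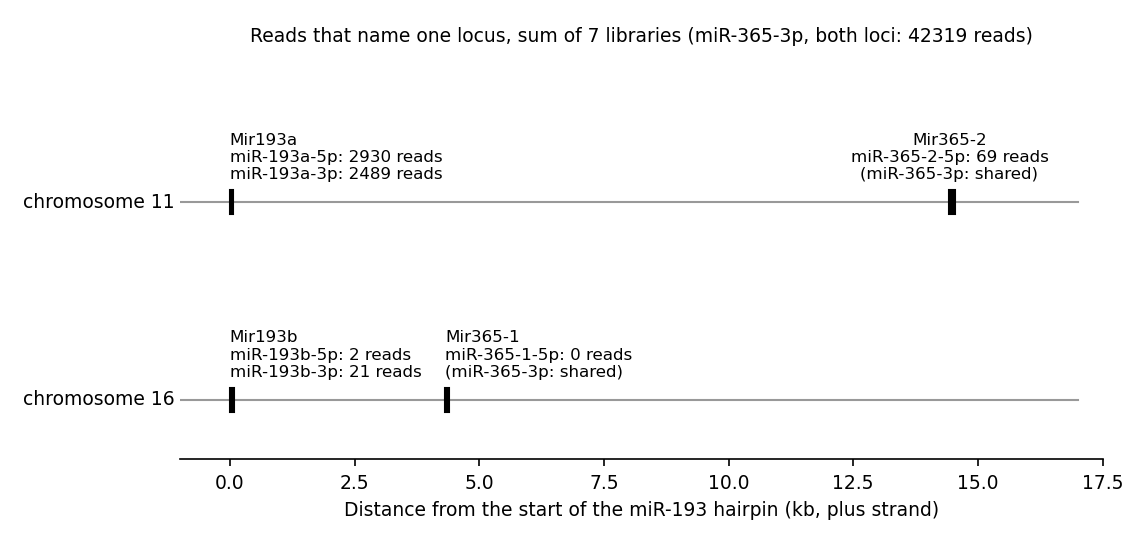
Map of both gene pairs to scale, with the distance from the start of the miR-193 hairpin in kb on the x axis and hairpins as black bars; printed beside the hairpins are the reads of each arm that names 1 locus, summed over 7 libraries. The chromosome 11 arms hold 2930, 2489 and 69 reads, and the chromosome 16 arms 2, 21 and 0.

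miR-193b-3p, the arm known from brown fat, was at the edge of detection in these hepatocytes. It had 2, 2, 3 and 4 reads in ALAS12-KO replicates 1 to 4, and 2, 8 and 0 reads in WT replicates 1 to 3. On the CPM scale its level was 0.192 ± 0.039 (SD, n = 4) in ALAS12-KO and 0.163 ± 0.185 (SD, n = 3) in WT. The WT values enclose all ALAS12-KO values. Of all miR-193-3p reads, the miR-193b form made up 0.710% (11 of 1550, 95% Wilson interval 0.397% to 1.27%) in ALAS12-KO and 1.04% (10 of 960, 0.567% to 1.91%) in WT. The 0 reads in WT replicate 3 allow up to 0.389 CPM there (3 reads). miR-193b-5p had 1 read in ALAS12-KO replicate 2 and 1 read in WT replicate 3.

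The 5p arms of miR-365 gave the only measure of which miR-365 locus was read. miR-365-2-5p, from chromosome 11, had 7, 5, 15 and 10 reads in ALAS12-KO and 13, 12 and 7 reads in WT. miR-365-1-5p, from chromosome 16, had 0 reads in each of the 7 libraries. That is 0 of 37 miR-365-5p reads in ALAS12-KO, which allows a share of up to 8.11%, and 0 of 32 in WT, which allows up to 9.38%. Over all libraries it is 0 of 69, which allows up to 4.35%. Whether the miR-365-3p reads follow the same division cannot be read from the counts.

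miR-365-3p was the most abundant of these arms in every library. It stood at 374, 363, 382 and 400.2 CPM in ALAS12-KO replicates 1 to 4, and at 458, 482 and 352 CPM in WT replicates 1 to 3. The groups overlap, because WT replicate 3, the shallowest library, was the lowest of the 7. That library also had the largest share of reads aligned outside any listed miRNA, 73.7%, against 50.9% to 72.2% in the others. The part of this share in its level was not tested. The means were 380 ± 15.6 CPM (SD, n = 4) in ALAS12-KO and 431 ± 69.2 CPM (SD, n = 3) in WT. The arm ranked 67th of 1966 miRNAs by mean CPM. It made up 87.5% of all reads of the 7 arms in ALAS12-KO and 89.6% in WT.

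miR-193a-5p was the next most abundant and varied as little over the 7 libraries as miR-365-3p. Its level was 24.0, 27.4, 26.1 and 29.5 CPM in ALAS12-KO replicates 1 to 4 and 30.8, 32.4 and 26.4 CPM in WT. In plain CPM, WT replicates 1 and 2 lie above every ALAS12-KO library, and WT replicate 3 lies among them. On the TMM scale ALAS12-KO replicates 1, 2 and 4, at 0.09, 0.16 and 0.04 from the 7-library mean (log2), lie above WT replicate 1, at 0.02. The means were 26.75 ± 2.31 CPM (SD, n = 4) in ALAS12-KO and 29.9 ± 3.08 CPM (SD, n = 3) in WT. From lowest to highest library the level spanned 1.35-fold, and that of miR-365-3p 1.37-fold.

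miR-193a-3p varied most among the 4 arms that could be tested. Its level was 15.6, 15.95, 46.5 and 23.1 CPM in ALAS12-KO replicates 1 to 4 and 22.2, 21.8 and 15.03 CPM in WT replicates 1 to 3. ALAS12-KO replicate 3 stood at 2.55 times the mean of the other 3 ALAS12-KO libraries, and the other ALAS12-KO libraries lay in the range of WT or just above it. The means were 25.3 ± 14.5 CPM (SD, n = 4) in ALAS12-KO and 19.7 ± 4.03 CPM (SD, n = 3) in WT. Its coefficient of variation in ALAS12-KO was 57.5%, against a median of 31.8% over the 450 tested miRNAs, of which 65 were more variable. The coefficient was 8.63% for miR-193a-5p and 4.11% for miR-365-3p in the same 4 libraries. In WT the arms differed less, at 20.5% for miR-193a-3p, 10.3% for miR-193a-5p and 16.1% for miR-365-3p, against a median of 16.9%.

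In order of mean level the arms ran miR-365-3p, miR-193a-5p, miR-193a-3p, miR-365-2-5p, miR-193b-3p, miR-193b-5p and miR-365-1-5p. The ranges of miR-193a-5p and miR-193a-3p overlap, and so do those of miR-193b-3p and miR-193b-5p, and of miR-193b-5p and miR-365-1-5p. miR-365-2-5p, at 0.495 to 0.878 CPM in ALAS12-KO and 0.546 to 0.907 CPM in WT, did not overlap miR-193b-3p, whose highest value was 0.364 CPM. All are 22 or 23 bases long, so reads were compared directly, with no correction for how readily each sequence was captured in the library.

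**Figure D2:**
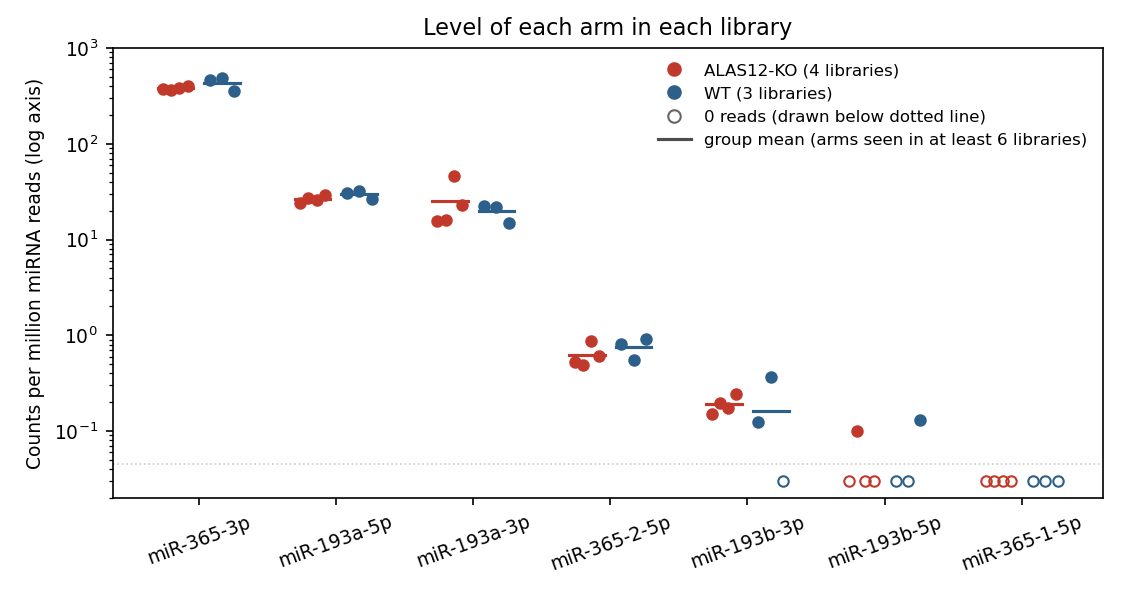
Level of each arm in CPM (log axis) in each ALAS12-KO (red, 4) and WT (blue, 3) library, with bars at group means and open circles for 0 reads. miR-365-3p lies at 352 to 482 CPM and the miR-193a arms at 15.03 to 46.5 CPM, while the chromosome 16 arms lie below 0.4 CPM.

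No arm passed a test of the difference between the genotypes. The edgeR quasi-likelihood test, fitted to all miRNAs past a filter on low counts, called 0 of 450 (0%) at a Benjamini-Hochberg adjusted p under 0.05. At an unadjusted p under 0.05 it held 84 (18.7%), with 0 of the 4 tested arms among them. DESeq2 called 21 of 450 (4.67%), and 97 (21.6%) had an unadjusted p under 0.05. limma-voom called 0 of 450 (0%), where 90 (20.0%) fell under 0.05 unadjusted. Both called 0 of the 4 arms. The genotypes did not overlap for 93 of 450 miRNAs (20.7%), of which 24 (5.33%) were higher in ALAS12-KO and 69 (15.3%) lower, and for 0 of the 4 arms.

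The filter passed miR-193a-3p, miR-193a-5p, miR-365-3p and miR-365-2-5p, while the chromosome 16 arms did not reach it. The log2 fold change, ALAS12-KO over WT on counts scaled by TMM, was 0.47 ± 0.33 (SE) for miR-193a-3p, with an edgeR adjusted p of 0.439. Without ALAS12-KO replicate 3 it was 0.07, and without replicate 1, the library poor in markers of other cells, 0.58. It was 0.02 ± 0.19 for miR-193a-5p and −0.04 ± 0.33 for miR-365-2-5p, with edgeR adjusted p of 0.975 and 0.993. For miR-365-3p it was −8.00e-05 ± 0.18, with an edgeR adjusted p of 1.00, the highest p of all 450. With counts scaled by library totals alone, miR-365-3p was at −0.18, with an edgeR adjusted p of 0.491. That scaling moved the median of all 450 miRNAs to −0.12, against 0.06 with TMM, and it also turned miR-193a-5p to −0.16.

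**Figure D3:**
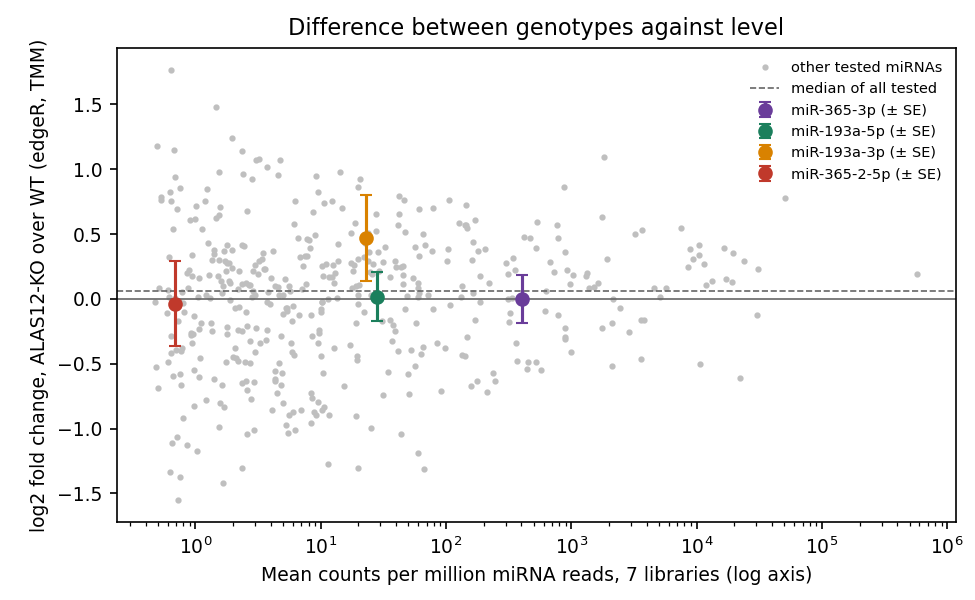
log2 fold change, ALAS12-KO over WT (edgeR with TMM), against mean CPM (log axis) for 450 miRNAs, with the 4 tested arms in colour and bars of 1 SE. miR-365-3p, miR-193a-5p and miR-365-2-5p lie at 0 within their error, and miR-193a-3p lies at 0.47.

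As a share of miRNA reads, the 7 arms together took 0.0433% ± 0.00254 (SD, n = 4) in ALAS12-KO and 0.0481% ± 0.00761 (SD, n = 3) in WT. A two-sided exact permutation test gave p = 0.371, where the 35 splits allow no p below 0.0286. With totals scaled by TMM the difference turned from −0.0048 to 7.57e-04 percentage points. The libraries held 0.0415%, 0.0407%, 0.0456% and 0.0454% in ALAS12-KO and 0.0512%, 0.0537% and 0.0394% in WT, so the groups overlap.

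The arms of the miR-193a hairpin were close to even, and 1 library reversed their order. miR-193a-5p made up 60.5%, 63.2%, 36.0% and 56.1% of the miR-193a reads in ALAS12-KO replicates 1 to 4 and 58.1%, 59.8% and 63.7% in WT replicates 1 to 3. The 95% Wilson interval was 33.3% to 38.7% in ALAS12-KO replicate 3, and the lowest bound of any other library was 52.8%. The 5p arm was therefore the larger in 6 of 7 libraries, and the 3p arm in ALAS12-KO replicate 3.

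In plain CPM, miR-193a-5p in ALAS12-KO replicate 3 stood at 26.1 CPM, within the range of the other libraries, while miR-193a-3p was the highest of the 7. On the TMM scale, where ratios within a library are the same, the library was 0.98 above the 7-library mean (log2) for miR-193a-3p and at −0.25 for miR-193a-5p. In log2 the 5p to 3p ratio was 0.23 ± 0.73 (SD, n = 4) in ALAS12-KO and 0.62 ± 0.18 (SD, n = 3) in WT. The difference was −0.39 ± 0.39 (SE), with a limma adjusted p of 0.767 over 131 hairpins, and −0.03 without ALAS12-KO replicate 3. Over the 131 hairpins limma called 0 (0%), and 7 (5.34%) had an unadjusted p under 0.05.

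Other hairpins were displaced in ALAS12-KO replicate 3 as well. Its log2 ratio for miR-193a, minus the median of the other 6 libraries, was −1.43, and 9 of 131 hairpins, miR-193a included, were displaced at least that far in either direction. The median displacement was 0.08. The library had the lowest ratio of the 7 in 28 hairpins and the highest in 36. The other libraries were each lowest in 13 to 26 hairpins and highest in 11 to 20. ALAS12-KO replicate 4 and WT replicate 2 were each alone on their side of an even ratio for 1 hairpin. ALAS12-KO replicate 3 was alone for 2 hairpins, miR-193a and miR-423, of which miR-423 was chosen after its values were seen. The part of this library as a whole in the miR-193a value was not tested.

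**Figure D4:**
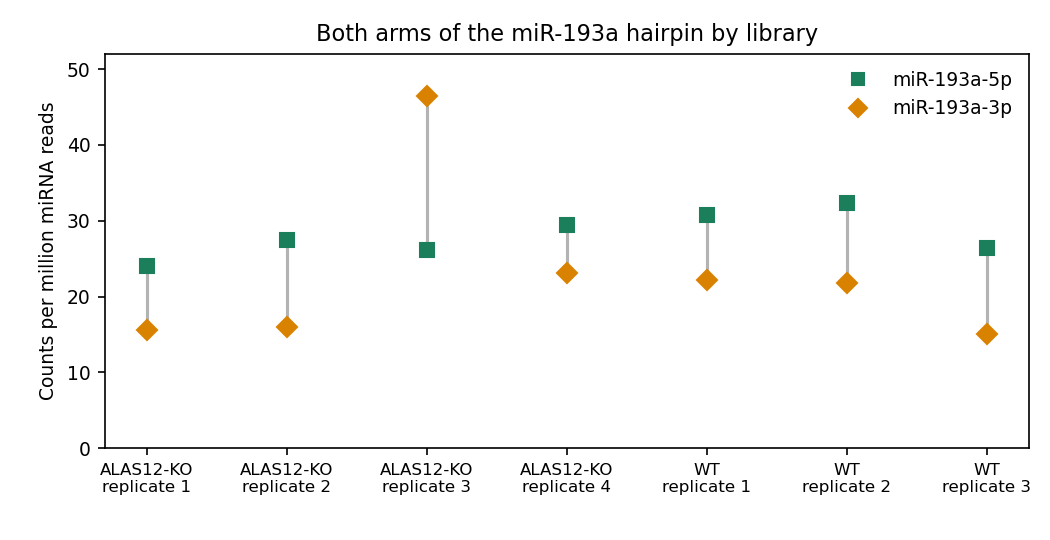
CPM of miR-193a-5p (squares) and miR-193a-3p (diamonds) in each library, ALAS12-KO left of WT. The 5p arm is above the 3p arm in 6 libraries, and in ALAS12-KO replicate 3 the 3p arm stands at 46.5 CPM over 26.1 CPM for the 5p arm.

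The miR-365-2 hairpin was one-sided in every library. miR-365-2-5p made up 0.142%, 0.136%, 0.229% and 0.152% of miR-365-2-5p plus miR-365-3p reads in ALAS12-KO and 0.177%, 0.113% and 0.257% in WT. The groups overlap. miR-365-3p has 1 entry for both loci, and how its reads were counted is not known, so these are not shares of the chromosome 11 hairpin alone. In log2 the ratio was −9.19 ± 0.31 (SD, n = 4) in ALAS12-KO and −9.10 ± 0.61 (SD, n = 3) in WT, a difference of −0.08 ± 0.31 (SE; limma adjusted p = 0.961). Of the 131 hairpins, 120 had a mean ratio closer to even than miR-365-2, and 4 had one closer to even than miR-193a. The miR-193a mean over the 7 libraries was 0.40 in log2, and 0.60 without ALAS12-KO replicate 3. In that alternative, chosen after seeing the data, 6 hairpins were closer to even than miR-193a and 120 than miR-365-2.

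Further ratios compared arms within a library. The log2 ratio of miR-193a-3p to miR-193b-3p, with 0.5 added to each count, was 6.65 ± 0.80 (SD, n = 4) in ALAS12-KO and 6.94 ± 1.04 (SD, n = 3) in WT (exact permutation, p = 0.657). The log2 ratio of miR-193b-3p to miR-365-3p was −10.71 ± 0.23 (SD, n = 4) in ALAS12-KO and −11.40 ± 1.07 (SD, n = 3) in WT (exact permutation, p = 0.314). Both rest on 0 to 8 reads of miR-193b-3p per library.

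miR-193a-5p and miR-365-3p kept a nearly fixed ratio, a comparison chosen after the values were seen. The log2 ratio was −3.83 ± 0.11 (SD, n = 4) in ALAS12-KO and −3.84 ± 0.09 (SD, n = 3) in WT. Reads of miR-365-3p can come from Mir365-2, the neighbour of Mir193a on chromosome 11, or from Mir365-1 on chromosome 16. Likeness between miRNAs was measured as the mean absolute difference of their log2 TMM-scaled levels, each centred on its own mean over the 7 libraries. By that measure miR-193a-5p lay 0.08 from miR-365-3p, and 1 of the other 449 tested miRNAs was nearer to miR-365-3p. Counted from miR-193a-5p, 7 of 449 were nearer. miR-193a-3p lay 0.37 from miR-365-3p, with 205 of 449 nearer to miR-365-3p and 111 of 449 nearer to miR-193a-3p. The arm that names the chromosome 11 locus, miR-365-2-5p, lay 0.33 from miR-193a-5p and 0.33 from miR-365-3p. Nearer than it were 189 of 449 to miR-193a-5p and 184 of 449 to miR-365-3p. It had only 5 to 15 reads per library. The libraries share their depth and scaling between all miRNAs, so these distances are descriptions.

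Among miRNAs with a mean of at least 50 CPM, those closest to miR-365-3p were miR-30c-2-3p at 0.06, miR-7a-5p at 0.08 and miR-130a-3p at 0.09, where the median of 130 candidates was 0.23. Those closest to miR-193a-3p were miR-99a-5p at 0.17, miR-122-3p at 0.20 and miR-221-3p at 0.22, where the median of 131 candidates was 0.42. All 3 were highest in ALAS12-KO replicate 3, as was miR-193a-3p, whose pattern was used to choose them. miR-99a-5p stood at 348, 333.5, 1080.4 and 642 CPM in ALAS12-KO replicates 1 to 4 and at 489, 382.5 and 417 CPM in WT replicates 1 to 3.

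**Figure D5:**
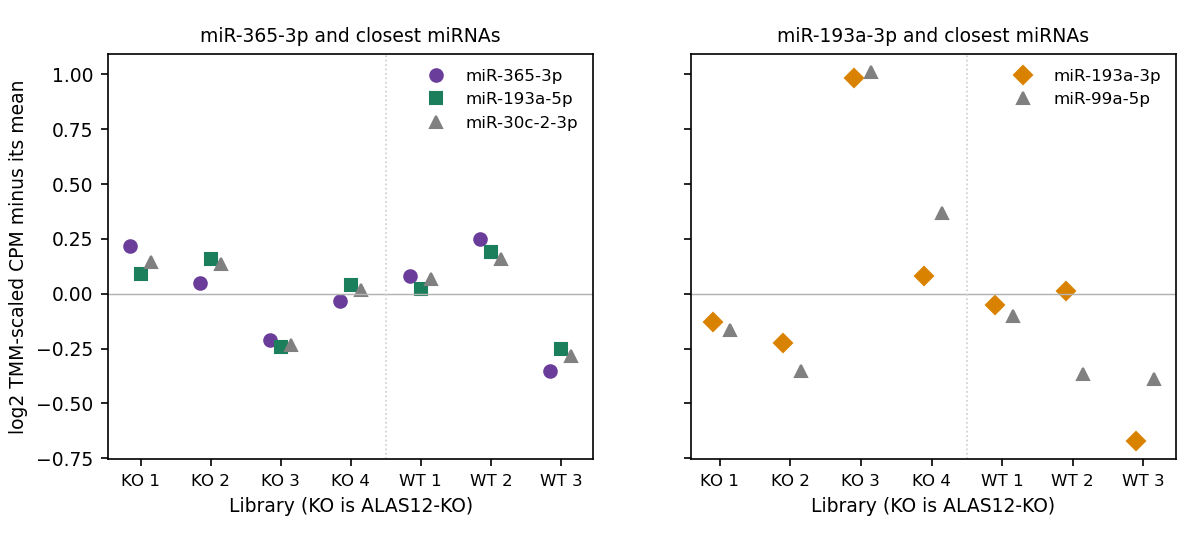
log2 TMM-scaled CPM centred on its mean over 7 libraries, ALAS12-KO (4) left of WT (3), for miR-365-3p with miR-193a-5p and miR-30c-2-3p (left) and for miR-193a-3p with miR-99a-5p (right). miR-193a-5p stays close to miR-365-3p, and miR-193a-3p reaches 0.98 in ALAS12-KO replicate 3.

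miR-193b and miR-365 are known from brown fat, so other miRNAs tied to that tissue were set beside them. Of a list of 11 miRNAs reported to be enriched in or to promote brown fat, 10 were tested and 10 had a positive log2 fold change. In the edgeR test 0 passed, as did 0 of all 450 miRNAs (0%). The median of the 10 was 0.48, against 0.06 over all 450 tested miRNAs, of which 252 were positive. The most abundant were miR-26a-5p (0.31 ± 0.11), miR-30c-5p (0.50 ± 0.17), miR-203-3p (0.63 ± 0.17) and miR-378a-3p (0.86 ± 0.19), with edgeR adjusted p of 0.220, 0.220, 0.156 and 0.113. The list was drawn up with earlier results of these libraries known, so its direction is not independent evidence. Of 6 miRNAs reported to oppose brown fat, 4 were tested, 2 with positive and 2 with negative values (median −0.14), and 0 passed. miR-34a-5p had the highest value of these 4, 1.10 ± 0.19, with an edgeR adjusted p of 0.103. With library totals the first list kept 10 positive values of 10, with a median of 0.29, and the second had 1 positive and 3 negative, with a median of −0.31. The median of the second list was −0.07 without ALAS12-KO replicate 1 and −0.23 without replicate 2.

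The edgeR test called 0 of all 450 miRNAs (0%), and so 0 of the markers of liver cell types and of other tissues. Negative log2 fold changes were found for 2 of 2 endothelial, 5 of 5 leukocyte, 8 of 9 mesenchymal, 5 of 5 cholangiocyte and 4 of 4 red cell miRNAs tested, and for 1 of 2 muscle miRNAs. Over all 450 tested miRNAs, 198 were negative. Among the cholangiocyte markers, miR-200a-3p, miR-200b-3p and miR-429-3p stood at −1.31, −1.30 and −1.27. The others, miR-141-3p and miR-200c-3p, were within their error of 0, at −0.10 ± 0.18 and −0.07 ± 0.28 (SE). Without ALAS12-KO replicate 2, or without WT replicate 3, 4 of 5 cholangiocyte markers were negative. Of the hepatocyte miRNAs, 11 of 11 tested were positive, with a median of 0.34, and 9 of 11 with library totals, where the median was 0.13. Without ALAS12-KO replicate 1 the leukocyte markers had 4 of 5 negative and a median of −0.02, against −0.26 with it. In bulk libraries fewer cells of a type and less RNA per cell cannot be told apart. In ALAS12-KO replicate 1, where endothelial, leukocyte and mesenchymal markers were lowest, miR-365-3p stood at 374 CPM, within the 363 to 400.2 CPM of the other ALAS12-KO libraries. On the TMM scale it was the highest of the 4, at 0.22 from its 7-library mean (log2), against −0.21 to 0.05. miR-193a-3p stood at 15.6 CPM in that library and at 15.95 CPM in ALAS12-KO replicate 2, an order that turns on the TMM scale (−0.13 and −0.23 from the mean). The part of other cells in the miR-193a-3p level was not tested.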

How the data were processed

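The deposited tables, 1 for each of the 7 libraries, hold raw counts of reads for every mature miRNA; their 5 summary entries were left out. Per the labels' protocols, total RNA was linker-ligated and size-selected. The submitters' processing notes name cutadapt and limma, with the builds mm10 and hg38. Neither aligner nor counter is given in the sources used here. The entry for non-unique alignments was 0 in all libraries, so how reads matching both miR-365 loci were counted cannot be read from the files. CPM scales reads to the summed miRNA reads of a library. Differences, ALAS12-KO over WT, came from edgeR 4.0.16 in R 4.3.3 (quasi-likelihood, robust, TMM, filterByExpr with a minimum count of 10, Benjamini-Hochberg). Arm ratios, with 0.5 added, were tested with limma 3.58.1. Single ratios used exact permutation. Alternatives were DESeq2 1.42.0, limma-voom, other scalings, other filters, blocking on replicate number and omission of single libraries. The code was tested on simulated data. The arms and lists were chosen with earlier results of these data known. Named were all 7 arms, the 3 miRNAs closest to each tested 3p arm and up to 4 abundant members of a list. Sequences are from RefSeq (GRCm38.p6), read with Python 3.11.15, and gene positions are the same in GENCODE M21. No library repeated another: within a genotype, chi-square per degree of freedom was at least 112.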

Additional observations from a re-analysis of the deposited data

Results flagged for a closer look

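In the 4 ALAS12-KO libraries, 2 of 12 measures had 1 library far from the rest, where chance flags about 1 in 20 (0.6 of 12). By the same measure, 22 of the 450 tested miRNA levels (4.89%) and 10 of the 131 hairpin ratios (7.63%) had such a library. The log2 ratio of miR-365-2-5p to miR-365-3p stood at −8.72 for ALAS12-KO replicate 3, with −9.38 to −9.29 for replicates 1, 2 and 4; the gap was 0.858 of the range, above Dixon's critical ratio of 0.829, and rests on 15 reads of miR-365-2-5p. For miR-193b-5p the gap was 1 of the range, because its 1 read in ALAS12-KO fell in replicate 2. miR-193a-3p in ALAS12-KO replicate 3, with a gap of 0.759, did not reach the critical ratio.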

How the results depend on the processing

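Over the alternatives run, 0 of the 4 tested arms passed the threshold, though the mean CPM filter left miR-365-2-5p untested. The log2 fold change of miR-193a-3p kept its sign in all 15 alternatives, at 0.07 to 0.60, the lowest without ALAS12-KO replicate 3. For miR-193a-5p the sign turned with library totals (−0.16), edgeR with DESeq2 size factors (−0.0015), upper-quartile factors (−0.071), DESeq2 (−0.0097), no filter (−0.033) and the mean CPM filter (−0.12), and values with 1 library left out ran from −0.11 to 0.13, negative when ALAS12-KO replicate 1, 2 or 4, or WT replicate 3, was the one omitted. With 1 library left out miR-365-3p ran from −0.18 to 0.13, positive when ALAS12-KO replicate 3, or WT replicate 1 or 2, was omitted. miR-365-2-5p ran from −0.22 to 0.036, positive on omission of ALAS12-KO replicate 2, or of WT replicate 1 or 3. The number of miRNAs called was 2 of 450 with library totals, 21 of 450 with DESeq2 and 13 of 1302 without the filter. With 1 library left out it was 0 to 1 of 450 (1 without ALAS12-KO replicate 2). Of miRNAs at unadjusted p under 0.05, the share higher in ALAS12-KO was 54.8% under TMM. It was 27.3% under library totals, 32.9% under upper-quartile scaling and 38.8% under the mean CPM filter.

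Replicate numbers gave no sign of pairing: the deviations of same-numbered libraries from their group means had correlations of −0.01, −0.39 and −0.03. WT replicates 1, 2 and 3 had their highest correlations, 0.15, 0.34 and 0.44, with ALAS12-KO replicates 3, 4 and 2. Whether libraries shared a batch under other numbers was not tested. With the replicate block, 0 miRNAs were called and miR-365-3p turned to 0.027, while miR-193a-3p had 0.43. No WT library has the number 4, so the blocked difference rests on replicates 1 to 3 of each genotype.

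The share of the 7 arms (difference −0.0048 percentage points) turned to 7.57e-04 with TMM-scaled totals and ran from −0.0092 to −0.0020 with 1 library left out. The ratio of miR-193a-3p to miR-193b-3p (difference −0.29) turned to 0.22 with 5 added and to 0.12 from group means, and ran from −0.86 to 0.17 with 1 library left out, positive without WT replicate 3; no direction can be given for it. For miR-193b-3p over miR-365-3p the difference of 0.69 kept its sign but was 0.18 with 5 added. With 1 library left out it ran from 0.19, without WT replicate 3, to 1.25, without WT replicate 2. The value of WT replicate 3, −12.41, is set by the 0.5 added to 0 reads. The ratio of miR-365-1-5p to miR-365-2-5p (0.26, exact permutation p = 0.571) is set by the 0.5 added to 0 reads and carries nothing on miR-365-1. The 5p to 3p ratio of miR-365-2 turned to 0.011 with 5 added, and ran from −0.39 to 0.22 with 1 library left out, positive without WT replicate 3. The cause was not tested. At 5 to 15 reads of miR-365-2-5p and 0 to 8 of miR-193b-3p per library, depth limits both.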
